A study of Mus musculus with 2 samples.

Results

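The genes described here sense DNA damage, halt the cell cycle or repair DNA, and their transcripts were compared between DN3 thymocytes with and without Miz-1 function. They were chosen by gene symbol from a list of 41 repair and checkpoint genes, out of 18194 named genes on the array. Every probe set annotated to one of the 41 was read, 93 in all. DN3 thymocytes are immature T cell precursors that rearrange the T cell receptor beta gene. They were sorted here as lineage-negative, CD44-negative, CD25-positive cells from mice of the C57BL/6 background. One array carries RNA labelled Miz1 knockout, from an allele that the series text calls Miz1-delta-POZ, and 1 array carries RNA labelled wt, for wild type. Miz-1 is a zinc finger transcription factor encoded by Zbtb17, and its POZ domain is the part through which it binds partner proteins. The sources used here do not give the age of the mice, any Cre driver or whether animals were pooled. With 1 array per genotype there was no replicate, so no difference below was tested and each is given as a size.

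Cells answer broken or stalled DNA through the kinases ATM and ATR, which act on the checkpoint kinases CHK2 and CHK1. Separate pathways then mend separate lesions: homologous recombination copies a break from the sister chromatid, the Fanconi anaemia proteins unhook crosslinks, mismatch repair corrects replication errors, nucleotide excision removes bulky adducts, and base excision removes single damaged bases. Recombination needs a sister chromatid, and many of its genes are transcribed mainly in S and G2 phase under E2F factors. In DN3 thymocytes the RAG recombinase cuts the receptor genes on purpose, so break signalling is part of the normal stage.

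The values are signal intensities on a linear scale. A floor was set at the median of all non-control values, 394, and a gene was called measured when the mean of both arrays was above it. Each gene was read by its brightest probe set, as the log2 ratio of knockout over wild type with values below the floor set to it. Zbtb17 read 1361 on the knockout array and 3042 on the other, and since the sources used here do not say where its probes lie relative to the deletion, this does not check the genotype labels. All 7 DN3 markers examined were measured, and their summed signal was 157672 (knockout) and 105662 (wild type). They were not alike in level. Il2ra, which encodes the CD25 of the sort, read 23018 and 4992, Dtx1 14456 and 2841, Notch1 57564 and 29223 and Ptcra 11518 and 7513. Rag2 (2437 and 2084) and Cd3e (13939 and 13146) differed less, and Rag1 was lower in the knockout (34741 and 45865). Cd44 lay at 331 and 424, close to the floor. On the knockout array the summed signal of 6 myeloid markers was 4985 against 2472 in the wild type, with 2 of them (Lyz2 and Csf1r) at least 2-fold higher, while Itgam, Cd68 and Mpo were below the floor on both arrays. Summed signals were also higher on the knockout array for markers of B cells (4117 against 2274), natural killer cells (5441 against 2669), gamma-delta T cells (67638 against 23288, nearly all Trgv4) and thymic epithelium (5831 against 3900). The natural killer sum was mostly Nkg7 (4655 against 1942). Ncr1 was higher as well (554 against 43.7, its mean under the floor), while Klrd1 was lower (232 against 683). The epithelial sum was mostly Epcam (4947 against 2604), while Krt5 was lower (756 against 863) and Krt8 and Foxn1 lay under the floor. Summed signals were lower for markers of dendritic cells (946 against 1731) and of double positive or mature T cells (779.9 against 1692). Most of these markers had a mean under the floor. Cd8b1 (36.8 against 679), Ccr7 (90.2 against 437) and Flt3 (67.6 against 554) lay above the floor on the wild-type array alone. Cd8a (541 against 497) and Cd4 (112 against 79.3) were higher in the knockout. The sexes differed too, with Xist at 55300.0 and 423 and the Y-linked Kdm5d at 37.0 and 1782. Sex and genotype cannot be told apart here, and the part of these DN3 and other cell markers in the results was not tested.

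Of the 41 genes, 38 were measured, and 7 of these were at least 2-fold lower in the knockout: H2afx, Fanci, Brca1, Chek1, Fancd2, Rad54l and Blm. They make up 18.4% of the measured members, where 5.65% of all 10770 measured genes were at least 2-fold lower. No member was at least 2-fold higher by its brightest probe set, where 7.23% of all measured genes were. The median log2 ratio of the 38 genes was -0.33, against 0.00 for all measured genes, and 25 of the 38 lay below 0. In cells measured in bulk, fewer cells that carry a transcript and less of it in each cell cannot be told apart. Bard1, Ercc2 and Ercc6 were not measured. Bard1, the ring finger partner of BRCA1, read 71.9 (knockout) and 178 (wild type), Ercc2, a helicase of the repair and transcription factor TFIIH, 304 and 335, and Ercc6, which acts at stalled RNA polymerase, 58.7 and 329.

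**Figure D1:**
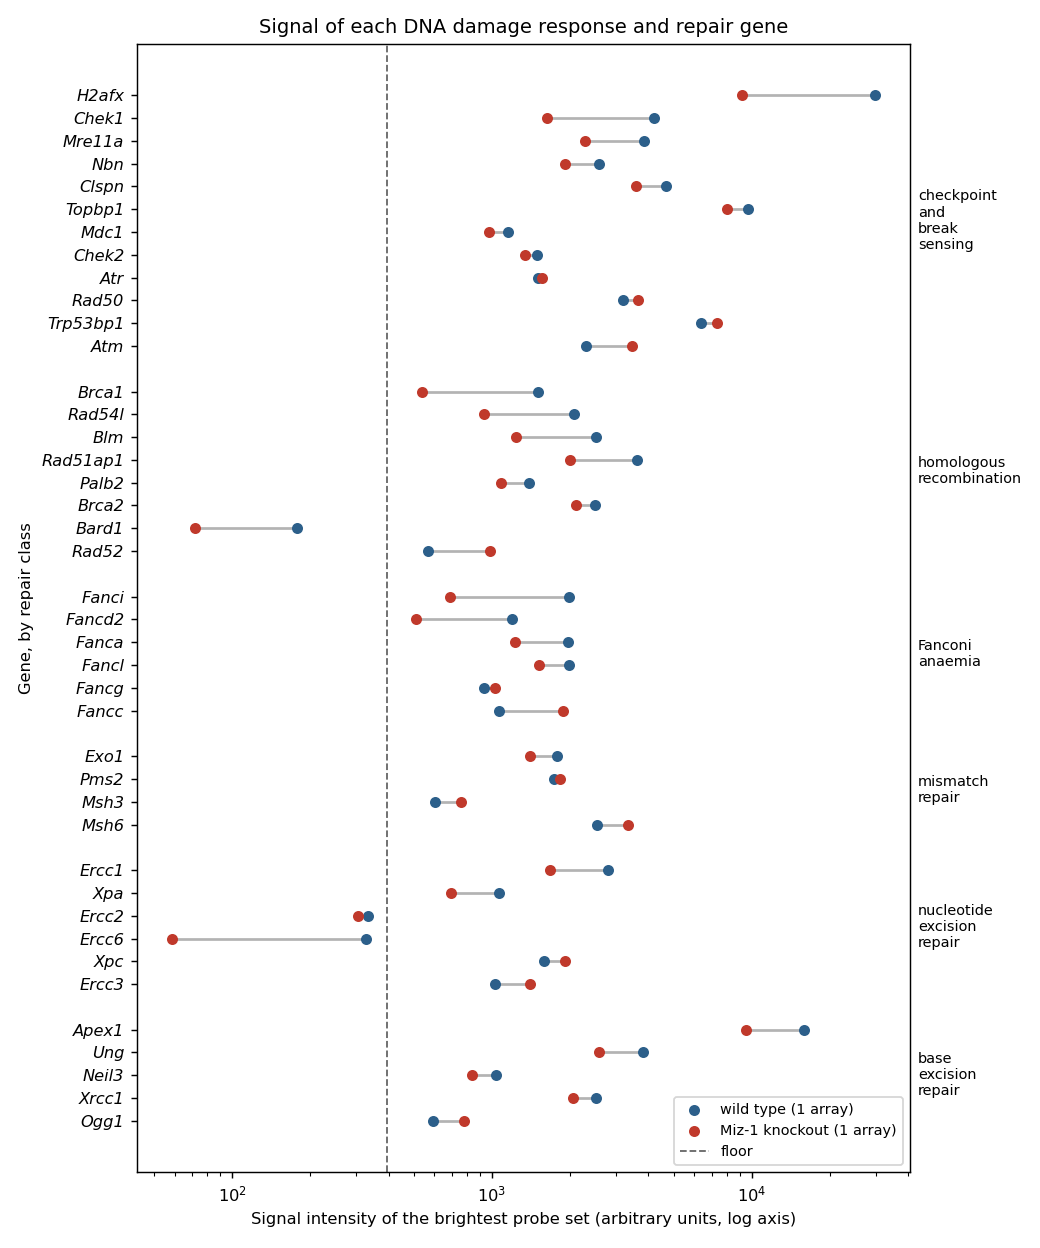
Signal intensity of the brightest probe set of each of the 41 genes (x axis, arbitrary units, log scale) on the knockout array (red) and the wild-type array (blue), with genes by repair class on the y axis and the floor of 394 as a dashed line; each point is 1 array. The widest gaps with wild type above knockout among measured genes are those of H2afx (9161 against 29773), Fanci (687 against 1978) and Brca1 (537 against 1507), and Bard1, Ercc2 and Ercc6 lie left of the floor.

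Several probe sets of a gene are the only repeated reading in these data. Over the 19 members with more than 1 measured probe set, the log2 ratios within a gene had a root mean square SD of 0.58, against 0.57 over 4514 genes of the array. It holds noise of single probe sets and any difference between transcripts of a gene. Error shared by the probe sets of an array is not in it, nor is variation between animals. Among the 68 measured probe sets of the members, 41 had a negative log2 ratio and 27 a positive one. Of these, 12 were at least 2-fold lower, where 5.43% of all measured probe sets were, and 2 at least 2-fold higher, where 8.17% were. In 16 of the 19 genes the measured probe sets shared 1 sign, and the exceptions were Brca1, Clspn and Rad52. Blm, at -1.01, was the member just past 2-fold, and Rad51ap1, at -0.86, the one just short of it.

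**Figure D2:**
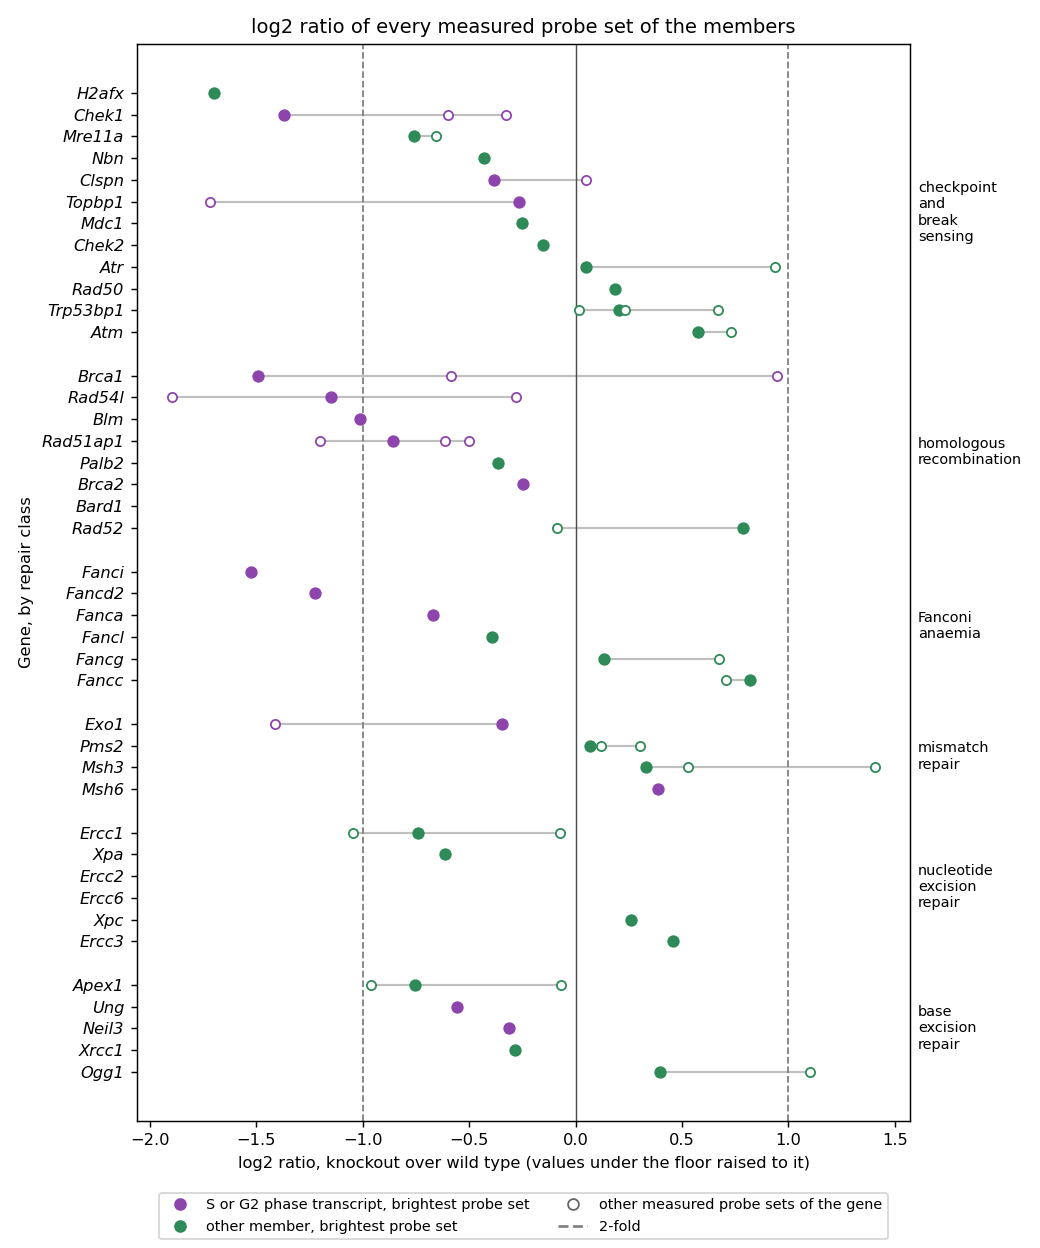
The log2 ratio of knockout over wild type (x axis) for every measured probe set of each gene (y axis, by repair class), with filled points for the brightest probe set, open points for the others, purple for genes with S or G2 phase transcripts, green for the rest, and dashed lines at 2-fold. The filled points of 7 genes lie at or left of the lower line and none at the upper one, and the bars of Brca1, Clspn and Rad52 cross 0.

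Promoter sequences show what the members with the lowest and the highest ratios carry at their start sites. RefSeq promoters of the GRCm38.p6 build, from 250 bases before to 50 bases after the start, were matched for 34 of the 41 genes, the exceptions being H2afx, Rad50, Nbn, Fancd2, Exo1, Xpc and Ercc3. Each was searched on both strands for the E2F motifs TTTCGCGC, TTTGGCGC and TTCCCGCC, the cell cycle homology region TTTGAA, the CCAAT box, and ATCGAT, a motif described for Miz-1. The 2 lowest and the 2 highest measured genes with an entry are shown 5′ to 3′ on the gene's strand, with any motif match in capitals. Fanci lies at chr7:79392088-79392387 on the plus strand, Brca1 at chr11:101551906-101552205 on the minus strand, Fancc at chr13:63431696-63431995 on the minus strand and Rad52 at chr6:119902448-119902747 on the plus strand.
Fanci: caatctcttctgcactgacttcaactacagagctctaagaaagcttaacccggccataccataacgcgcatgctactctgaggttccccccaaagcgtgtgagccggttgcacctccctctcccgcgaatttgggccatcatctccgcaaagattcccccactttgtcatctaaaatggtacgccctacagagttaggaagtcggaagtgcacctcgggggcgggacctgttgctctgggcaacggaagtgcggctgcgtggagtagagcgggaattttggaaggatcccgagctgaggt
Brca1: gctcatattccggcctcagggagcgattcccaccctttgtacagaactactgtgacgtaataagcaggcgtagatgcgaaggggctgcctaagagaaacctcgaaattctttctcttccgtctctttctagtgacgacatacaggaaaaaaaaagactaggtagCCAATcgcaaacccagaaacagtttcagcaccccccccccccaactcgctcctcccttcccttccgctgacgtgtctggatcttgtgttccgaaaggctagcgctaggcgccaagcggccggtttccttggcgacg
Fancc: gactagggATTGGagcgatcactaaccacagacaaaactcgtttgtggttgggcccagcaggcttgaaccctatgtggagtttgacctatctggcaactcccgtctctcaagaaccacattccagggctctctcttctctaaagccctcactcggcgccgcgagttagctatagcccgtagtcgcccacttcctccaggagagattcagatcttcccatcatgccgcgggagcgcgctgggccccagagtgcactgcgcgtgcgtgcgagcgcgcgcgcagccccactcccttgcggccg
Rad52: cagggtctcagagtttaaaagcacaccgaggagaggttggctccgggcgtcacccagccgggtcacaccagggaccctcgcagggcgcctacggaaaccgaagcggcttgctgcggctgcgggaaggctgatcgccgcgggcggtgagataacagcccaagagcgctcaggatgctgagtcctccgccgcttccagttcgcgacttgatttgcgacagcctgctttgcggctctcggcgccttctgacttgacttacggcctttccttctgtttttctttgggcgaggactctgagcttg
Of these 4 promoters, Brca1 and Fancc each hold 1 CCAAT box, on the gene's strand in Brca1 and on the opposite strand in Fancc, and Fanci and Rad52 hold none of the motifs. No match says only that these letters are not in the window.

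An E2F motif was found in the promoters of 7 of the 34 genes, and the 30 bases around each are shown with the motif in capitals. Positions are counted from 0 at the base that follows the 250 upstream bases. Chek1 lies at chr9:36726609-36726638 (minus strand), Clspn at chr4:126556990-126557019 (plus), Rad51ap1 at chr6:126939558-126939587 (minus), Topbp1 at chr9:103305187-103305216 (plus), Msh6 at chr17:87975055-87975084 (plus), Mdc1 at chr17:35841472-35841501 (plus) and Msh3 at chr13:92355183-92355212 (minus).
Chek1, motif at 42 to 49: cagcatgacgcaagcaggttttGGCGGGAA
Clspn, motif at 21 to 28: accgcgtctggGCGCGAAAgctcgaacttc
Rad51ap1, motif at 11 to 18: gtctggttttcGGCGGGAAttgaaaccgcc
Topbp1, motif at -129 to -122: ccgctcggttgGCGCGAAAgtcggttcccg
Msh6, motif at 16 to 23: tcctcccgactTTCCCGCCagcggcggccg
Mdc1, motif at -15 to -8: cttcagcctgtTTCCCGCCggtagccgcac
Msh3, motif at -198 to -191: cgtcaagtttgGCGCGAAAtcgcagccctg
In Msh3 the window also holds TTTGGCGC at -202 to -195, overlapping the match shown. Of the 35 member promoters (1 gene has 2 start sites), 20.0% held an E2F motif, against 2.96% of 32851 promoters in the table. They were 5 of the 15 promoters of members with S or G2 phase transcripts and 2 of the 20 others, a contrast partly built in, since that group was chosen in part for E2F-driven transcription. The ratios of the genes with an E2F motif ran from -1.37 for Chek1 to 0.39 for Msh6. Of the 5 genes at least 2-fold lower that had an entry, Chek1 alone held one (16.7% of their 6 promoters). ATCGAT stood in Ercc2 at -206 to -201 and in Neil3 at -236 to -231, 5.71% of member promoters against 0.925% of all, and in none of the 5 genes at least 2-fold lower that had an entry. A CCAAT box was in 57.1% of member promoters and 37.4% of all, and TTTGAA in 2.86%, the Bard1 promoter alone, and 17.9%. The shares were not adjusted for base composition, and their differences between member promoters and all promoters were not tested. A match is a run of letters and no evidence that a factor binds there.

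Among the checkpoint and break sensing genes the histone H2afx and the kinase Chek1 were lower in the knockout, and the upstream kinases were not. H2afx encodes the histone variant H2AX, whose phosphorylation marks chromatin around a break. On its single probe set the knockout array gave 9161 and the wild-type array 29773, 3.25-fold lower. This was the lowest ratio of any measured member by the brightest probe sets as deposited, although under quantile normalization it was -1.42 against -1.62 for Fanci and -1.61 for Brca1, and under loess -1.39 against -1.63 and -1.61. Chek1, the kinase that ATR activates to hold S phase and G2, read 1634 and 4220 by its brightest probe set, 2.58-fold lower. That probe set carries sequence shared with other transcripts, and the other 2 measured ones gave log2 ratios of -0.33 (2025 and 2538) and -0.60 (629 and 951). All 3 had the knockout lower, but only the first passed 2-fold, and Chek1 was not past it without shared-sequence probe sets or by the mean of its probe sets (-0.76).

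The kinases and mediators of the damage signal lay close to or above their wild-type level. Atm, the kinase that answers breaks, read 3445 (knockout) and 2310 (wild type), and its log2 ratios of 0.58 and 0.73 agree in sign. Atr, the kinase that answers stalled forks, read 1556 and 1503 (log2 ratio 0.05) by one probe set and had 0.94 by the second. Chek2, the kinase downstream of ATM, read 1336 and 1485 (-0.15). These 3 kinases differed by less than 2-fold in each of their 5 measured probe sets. Trp53bp1, which steers break ends toward joining, had log2 ratios from 0.02 to 0.67 over 4 probe sets and read 7366 and 6392 by the brightest. Mdc1, the adaptor that binds phosphorylated H2AX, read 972 and 1156 (-0.25).

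The genes that start and relay ATR signalling at forks were lower by less than 2-fold by their brightest probe sets. Topbp1, the activator of ATR, read 8029.6 and 9667 (-0.27), whereas its second probe set read 460 and 1510, 3.28-fold lower. Clspn, the claspin adaptor that brings CHK1 to ATR, read 3587 and 4671 (-0.38) and 649 and 628 (0.05). The probe sets of Topbp1 thus disagree in size and those of Clspn in sign. Of the complex that first binds broken ends, the nuclease Mre11a read 2280.1 and 3858, with log2 ratios of -0.76 and -0.66. Nbn, its ATM-recruiting subunit, read 1906 and 2570 (-0.43), and Rad50, the ATPase that tethers ends, 3639.0 and 3197 (0.19). The 3 subunits of this one complex thus ran from -0.76 to 0.19. Over the 12 genes of the class, all measured, 2 were at least 2-fold lower, 8 lay below 0 and the median log2 ratio was -0.26.

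Homologous recombination had the lowest median of the 6 classes by the brightest probe sets, -0.86 over 7 measured genes. By the mean of probe sets it was -0.38, above the -0.53 of the Fanconi genes, so that order did not hold. In this class 3 genes were at least 2-fold lower and 6 lay below 0. Brca1, the scaffold that promotes end resection, was 2.81-fold lower by its brightest probe set, at 537 and 1507. A second probe set read 929 and 482, a log2 ratio of 0.95 in the opposite direction, and the remaining one of -0.58. The 3 measured Brca1 probe sets therefore give no common direction, and their mean, -0.38, was not past 2-fold. Rad54l, the motor that helps strand invasion, read 929 and 2063, 2.22-fold lower. Its second probe set was 3.72-fold lower (401 and 1493), and the last measured one, of shared sequence, 1.21-fold lower (736 and 894). All 3 Rad54l probe sets had the knockout below the wild type.

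Of the other 5 measured recombination genes, Blm alone passed 2-fold. Blm, the helicase that dissolves joined chromosomes, read 1242 and 2502 on its only probe set, 2.01-fold lower. Rad51ap1, which promotes strand pairing, read 2004 and 3629.9, and its 4 probe sets ran from -1.20 to -0.50. With 4 probe sets below 0 and 1 of them past 2-fold (2.29-fold lower), this gene was the most often sampled of the class. Brca2, a mediator of strand exchange, read 2105 and 2495 (-0.25 from its single probe set), and Palb2, the bridge between BRCA1 and BRCA2, 1082 and 1393 (-0.36). Rad52, an annealing factor, was the one gene of the class above 0, at 980.4 and 569 (0.79), and its second probe set gave -0.09. When Mre11a, Rad50 and Nbn were counted with recombination the class median was -0.59.

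Among the 6 Fanconi anaemia genes, Fanci and Fancd2 were at least 2-fold lower (33.3%, against 5.65% of all measured genes). The other 4 lay on both sides of 0. Fanci and Fancd2 encode the paired proteins that clamp onto crosslinked DNA once ubiquitin is attached. Fanci read 687 and 1978, 2.88-fold lower in the knockout, and Fancd2 read 512 and 1195, 2.33-fold lower. Each rests on 1 measured probe set, and the other probe sets of both genes had means under the floor. Of the complex that attaches the ubiquitin, Fanca read 1230.0 and 1955 (-0.67) and the ligase subunit Fancl 1511 and 1985 (-0.39). Fancg read 1022 and 930.4 (0.14 and 0.67 over 2 probe sets), and Fancc 1880.0 and 1064 (0.82 and 0.70). Ube2t, the conjugating enzyme that supplies the ubiquitin and no member of the list, read 1147 and 2192 (-0.93). Further Fanconi genes outside the list lay on both sides of 0, with Fancm at -0.55, Fancf at -0.08, Fancb at 0.43 and Fance at 0.66. Fancc was 1.77-fold higher, the highest ratio of any member by the brightest probe sets, and both of its measured probe sets had the knockout above the wild type. The class median was -0.53 over 6 genes.

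No mismatch repair gene was at least 2-fold lower or higher by its brightest probe set, and 3 of the 4 lay above 0, with a median of 0.20. Msh6, which takes part in recognising single mismatches, read 3332 and 2547 (0.39). Msh3, which acts on small loops, read 762 and 606 (0.33), and its second probe set read 1045 and 304, at least 2.65-fold higher because the wild-type value lay under the floor. All 3 measured Msh3 probe sets were above 0. Pms2, the endonuclease subunit, read 1821 and 1739, and its 3 probe sets kept between 0.07 and 0.30. Exo1, the exonuclease that also resects breaks, was the only one of the class below 0, at 1400 and 1780.1 (-0.35). Its second probe set read 316 and 1047, at least 2.66-fold lower.

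Nucleotide excision repair showed no common direction, with 2 of its 4 measured genes below 0 and a median of -0.18. Ercc1, a subunit of the nuclease that cuts 5′ of a lesion, read 1676 and 2795 (-0.74) by a shared-sequence probe set and -0.07 by the next, and the third was at least 2.06-fold lower (85.2 and 813). Xpa, which checks the lesion, read 695 and 1063 (-0.61). Xpc, the sensor of distorted DNA, read 1901 and 1590 (0.26), and the TFIIH helicase gene Ercc3 1404 and 1022 (0.46). None of the 4 passed 2-fold by the brightest probe set. Without shared-sequence probe sets the class median was 0.09, above 0.

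Base excision repair had 4 of 5 measured genes below 0, none of them past 2-fold, and a median of -0.31. Apex1, the endonuclease that cuts at abasic sites, read 9467 and 15945 (-0.75) and 6330 and 12317 (-0.96) by 2 shared-sequence probe sets. The other probe set, without shared sequence, read 5617 and 5885 (-0.07), so the size of the Apex1 difference depended on the probe set. Ung, which removes uracil, read 2586 and 3809 (-0.56) and the glycosylase Neil3 835 and 1035 (-0.31). Xrcc1, the scaffold of the late steps, read 2055 and 2505 (-0.29). Ogg1, which removes oxidised guanine, read 779.8 and 592 (0.40), and its second probe set was 2.15-fold higher (924 and 430).

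Set side by side, the class medians ran from -0.86 in recombination and -0.53 in the Fanconi genes, through -0.31 in base excision, -0.26 in checkpoint and sensing and -0.18 in nucleotide excision, to 0.20 in mismatch repair. By the mean of probe sets recombination (-0.38) no longer lay below the Fanconi genes (-0.53). The 7 genes at least 2-fold lower by the brightest probe sets stood in recombination (3), the Fanconi genes (2) and checkpoint and sensing (2). The SD of the genes within a class was 0.87 in the Fanconi genes, 0.76 in recombination, 0.65 in checkpoint and sensing, 0.60 in nucleotide excision, 0.44 in base excision and 0.34 in mismatch repair. With 4 to 12 measured genes in a class and no replicate, the order of the medians was not tested.

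The members were also divided by cell cycle regulation, which crosses the classes. Of the 41 genes, 16 have transcripts known to rise in S or G2 phase or to be driven by E2F. That list was taken from the literature, but with earlier results of these data known, so it is not independent of them. Of the 15 measured among them, 14 lay below 0, with Msh6 the exception, and the median was -0.67. Of the same 15, 6 were at least 2-fold lower (40.0%). Of the 23 other measured members, 11 lay below 0 and 1, H2afx, was at least 2-fold lower (4.35%, near the 5.65% of all measured genes). Absence from the list does not show that a transcript, that of H2afx included, is constant over the cell cycle. The median of the 23 other members was 0.05. The sign of that second median turned with the setting, to -0.040 under quantile normalization, -0.026 under loess and -0.14 with a lower floor. Within recombination the 5 measured genes of the S or G2 group had a median of -1.01, against 0.21 for Palb2 and Rad52. Within the Fanconi genes Fanci, Fancd2 and Fanca had a median of -1.22 and Fancc, Fancg and Fancl one of 0.14. The gap was smaller in the other classes that hold both kinds, at -0.38 against -0.15 in checkpoint and sensing, -0.43 against -0.29 in base excision and 0.02 against 0.20 in mismatch repair. No test stands behind this contrast, which describes these 2 arrays.

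**Figure D3:**
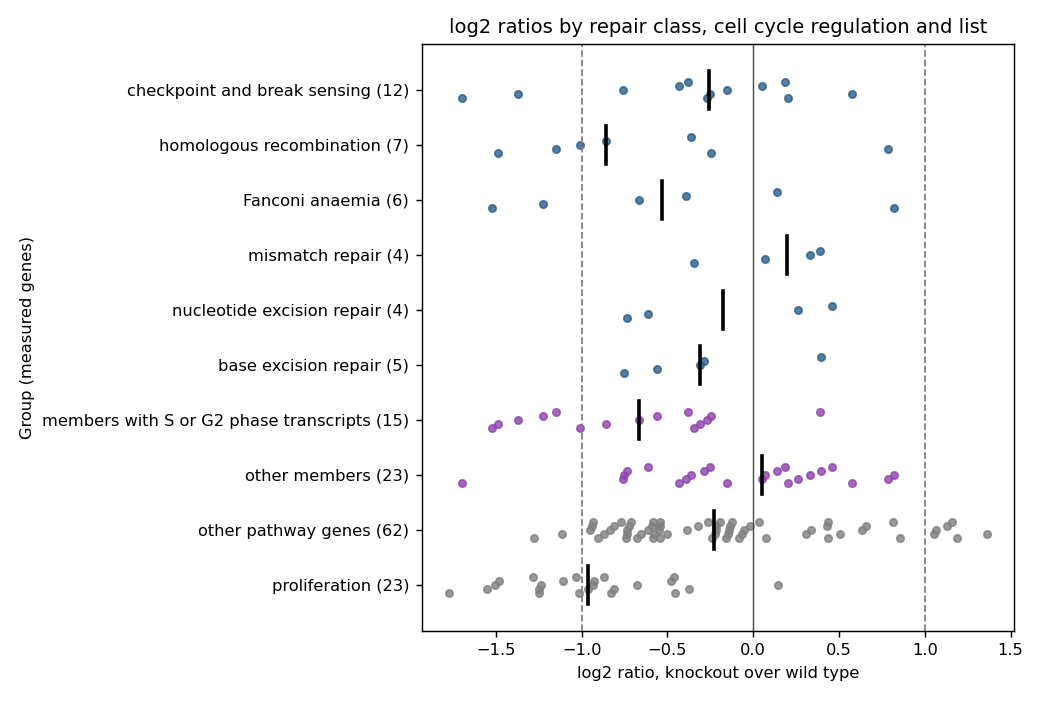
The log2 ratio of knockout over wild type (x axis) of each measured gene, by repair class, by cell cycle regulation of the members, and for other pathway genes and proliferation genes (y axis, number of measured genes in brackets); black bars are medians, dashed lines 2-fold, and the thin line the median of all measured genes. The median is -0.67 for members with S or G2 phase transcripts, 0.05 for the other members and -0.96 for proliferation genes.

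General proliferation genes were lower on the same array. Of 23 measured genes of division and DNA synthesis, 11 were at least 2-fold lower (47.8%, against 5.65% of all measured genes) and none was at least 2-fold higher (7.23% of all), with a median of -0.96. Mki67, the proliferation marker, read 6470 and 18940, and Rrm2, a subunit of ribonucleotide reductase, 9665 and 23008. The S and G2 phase members and these genes thus moved to the same side, and the part of cell cycle distribution in the members' ratios was not tested.

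Other genes of the same repair and checkpoint pathways, 74 on a list taken from the literature, had few members past 2-fold on the lower side. This list too was chosen with earlier results of these data known. Of 62 measured, 2 were at least 2-fold lower (3.23%, against 5.65% of all measured genes) and 6 at least 2-fold higher (9.68%, against 7.23%), although 44 lay below 0 and the median was -0.23. Under quantile and loess normalization the split was 4 lower and 4 higher. At 1.5-fold, 19 (30.6%) were lower, where 17.9% of all measured genes were, and 10 (16.1%) higher, where 19.2% were. Both genes past 2-fold on the lower side encode proteins that work in recombination. Rad51c read 242 and 954, at least 2.42-fold lower, and Xrcc3 read 691 and 1497, 2.17-fold lower, while its second probe set, of shared sequence, gave 0.17. Just short of 2-fold stood Mutyh, a glycosylase (-0.95), and Wee1, the kinase that holds CDK1 inactive (-0.94). The genes on the higher side came from several pathways. Mpg, a base excision glycosylase, read 1013 and 358, at least 2.57-fold higher, with 0.52 by its second measured probe set. Slx4, a nuclease scaffold, read 1660.0 and 730 (2.27-fold higher), Rad9a, a subunit of the checkpoint clamp, 3004 and 1344 (2.24-fold), and Ercc5, the nuclease that cuts 3′ of a lesion, 2729 and 1249 (2.18-fold). Smug1, a uracil glycosylase, and Mgmt, which reverses alkylated guanine, were the other 2. At 2-fold these shares lay near those of all genes in both directions, and they are no result about the list, whereas at 1.5-fold the lower share was above that of all genes, as it was for the members (34.2%).

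**Figure D4:**
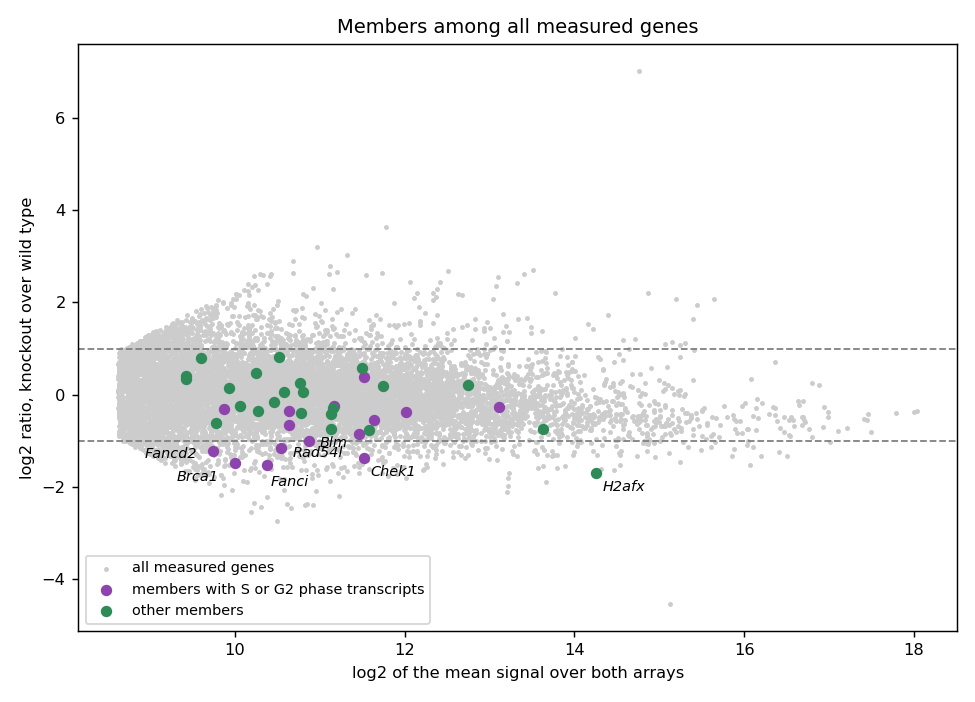
The log2 ratio of knockout over wild type (y axis) against the log2 of the mean signal over both arrays (x axis) for all 10770 measured genes (grey), members with S or G2 phase transcripts (purple) and other members (green), with dashed lines at 2-fold. The 7 named genes lie below the lower line, and the members spread over mean signals from 684 to 19467, with a median of 1747 against 1444 for all measured genes.

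The place of the members among all measured genes shows how far each of the lowest stands from the bulk. Counted from the lowest ratio, H2afx was at rank 47, Fanci at 109, Brca1 at 118, Chek1 at 165, Fancd2 at 300, Rad54l at 380 and Blm at 589 of 10770. Counted from the highest, Fancc was at rank 1244 and Rad52 at 1355, and both differed by less than 2-fold. By the brightest probe sets the lower end of the members thus reached into the outer range of all genes and the upper end did not. The upper end depended on the choice of probe set. The second probe set of Msh3, of mean signal 674 against 684, gave a log2 ratio of 1.41. That of Ogg1, of mean signal 677 against 686, gave 1.10.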

How the data were processed

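RNA of 2 sorted DN3 samples was hybridised to 1 array each, 1 per genotype. The authors deposited 1 unlogged signal intensity for each probe set and array. The submitters' processing notes name GCOS 1.4, without settings. Both arrays had a 2% trimmed mean of 1000, so they had been scaled alike before deposit. Of 45101 probe sets, 64 controls were left out. The 3′ to 5′ signal ratio of the Actb control was 1.6 (knockout) and 2.06 (wild type), and that of Gapdh 0.645 and 0.641. The supplied annotation gave 34958 probe sets 1 gene symbol, 34754 of them updated by gene identifier from RefSeq (GRCm38.p6), and 932 had several and were not named.

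Values below the floor of 394 were set to it before the log2 ratio of knockout over wild type was taken. A gene counted as different when its brightest probe set was measured, its brighter array lay above the floor and the ratio reached 2-fold. No test was possible with 1 array per genotype, and the number of arrays limits the precision. The code was tested on simulated data with bright genes, changes larger than those of the members and less noise than the spread within genes. That test does not show how reliable calls near 2-fold are. All 41 members are named, and of the other pathway genes those past 2-fold, up to the 4 lowest and 4 highest. Mutyh, Wee1, Ube2t, Fancb, Fance, Fancf and Fancm were added after their values were seen. The members, classes and lists were chosen with earlier results of these data known. Alternatives were 3 scalings, 3 floors, the mean of probe sets, leaving out shared-sequence probe sets (identifiers ending in _x_at or _s_at), 1.5-fold and 2 other class assignments. Python 3.11.15, pandas 2.3.3, numpy 2.4.6, statsmodels 0.14.6 (loess) and matplotlib 3.10.9 were used.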

Additional observations from a re-analysis of the deposited data

How the results depend on the processing

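The same 7 members were at least 2-fold lower under median centring, quantile and loess normalization and a floor at the 60th percentile, and all 7 were among the 8 with the lower quartile as floor (Ercc6 added) and the 9 with no floor (Ercc6 and Bard1 added). The background rose with these 2 lower floors: members lower made up 19.5% against 13.9% of all genes, and 22.0% against 15.5%, a smaller excess than 18.4% against 5.65%. Without shared-sequence probe sets 6 of them passed 2-fold (not Chek1), and by the mean of probe sets 5 (neither Chek1 nor Brca1). At 1.5-fold, 13 members (34.2%, against 17.9% of all measured genes) were lower and 2, Fancc and Rad52, higher (5.26% against 19.2%). The second Brca1 probe set gave 0.95, the opposite sign.

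The median over all members stayed between -0.40 and -0.28 and that of the S and G2 phase members between -0.76 and -0.56. The median of the other members turned to -0.040 under quantile and -0.026 under loess normalization, and to -0.14 with either lower floor. That of recombination was -0.38 by the mean of probe sets and -0.59 with Mre11a, Rad50 and Nbn added, and that of nucleotide excision 0.093 without shared-sequence probe sets. Other pathway genes at least 2-fold lower numbered 4 under quantile and loess normalization, with 4 higher, and 1 with a floor at the 60th percentile or by the mean of probe sets. At 1.5-fold they numbered 19 lower (30.6% against 17.9% of all genes) and 10 higher (16.1% against 19.2%). The cause of these shifts was not tested. The median of all genes shifted by -0.0406 under median centring, -0.0399 under quantile and -0.0315 under loess normalization. No paired analysis was possible because each genotype has 1 array and the labels share no replicate number.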
